A study of Mus musculus with 6 samples.

Results

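The interleukin-6 family of cytokines and receptors was examined in cells of the mouse mammary carcinoma line 4T1. The 10 genes were taken by symbol from a table of 56448 genes. They comprised 5 cytokine genes (Il6, Il11, Lif, Clcf1 and Ctf1) and 5 receptor genes (Il6ra, Il6st, Osmr, Lifr and Il11ra1). All 10 were listed, and 9 reached the mean of 1 TPM that was required for testing, as did 13406 genes of the table. TPM is a transcript's abundance scaled by its length and by the library's total. The tenth, Lifr, was not tested.

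The series describes 4T1 cells with a stable lentiviral knockdown of the microRNA miR-9 and a control group. The in9 label was on 3 libraries and the LV2 label on the other 3, and the labels describe cells grown in medium with 10% fetal bovine serum. Other entries conflict with this: the extraction protocol speaks of tissue, and the design text of a microarray, whereas the values are sequencing TPM. Neither name is explained in the labels, which also do not say which group is the control or whether each group was 1 clone or a pool, so differences are given as in9 minus LV2. Whether replicates were separate cultures is not stated. The p-values therefore cover the spread among these 6 samples alone, and that spread may be technical.

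Cytokines of this family signal through a shared receptor chain, gp130, which Il6st encodes. Interleukin-6 and interleukin-11 first bind their own receptor chains (Il6ra and Il11ra1), whereas leukaemia inhibitory factor and cardiotrophin-1 use a pair of gp130 and the LIF receptor (Lifr), and mouse oncostatin M uses gp130 with the oncostatin M receptor (Osmr). Bound receptors activate Janus kinases and the transcription factor STAT3, which induces its own inhibitor Socs3. In breast tumours these cytokines are known as signals between tumour cells, stroma and immune cells.

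The microRNA and its seed matches in the family are shown first because Lifr is a reported target of miR-9. Capitals in the mature sequences mark the seed, bases 2 to 8 from the 5′ end, and sequences are those of RefSeq on GRCm38.p6.
mmu-miR-9-5p: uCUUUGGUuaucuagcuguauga
mmu-miR-9-3p: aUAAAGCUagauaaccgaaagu
Both arms are encoded by Mir9-1, Mir9-2 and Mir9-3 on chromosomes 3, 13 and 7.

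Matches to the miR-9-5p seed were sought in the 3′ UTR of each member, taking its longest annotated one (GENCODE M21, GRCm38). A match was the sequence ACCAAAGA, or its first or last 7 bases. There were 5 matches in 3 of the 10 members, all of them receptor genes, and none in the other 7, which include every cytokine gene. Of 21021 genes with a 3′ UTR, 20.3% held at least 1 such match. The matches follow in capitals, transcript strand, 5′ to 3′.
Lifr, chr15:7193016-7193023, plus strand: ccagagccaacACCAAAGAgtttctgtctt
Lifr, chr15:7191406-7191412, plus strand: ttttgattgagCCAAAGAaccctcccaaa
Il6st, chr13:112508137-112508143, plus strand: cagctgactttCCAAAGAacacttacgtt
Il6st, chr13:112509264-112509270, plus strand: tgcgaagtataACCAAAGcgatcatgttt
Il6ra, chr3:89866635-89866641, minus strand: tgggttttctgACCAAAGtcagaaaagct
The single 8-base match was in Lifr. Matches are between 237 and 4819 bases into UTRs of 6320 (Lifr), 5641 (Il6st) and 7102 (Il6ra) bases. The table lists lengths of 4143, 5207 and 3343 bases for these genes, all shorter than the UTR alone, so reads from the distal UTRs may not all have been counted. For miR-9-3p (AGCTTTAA, or its first or last 7 bases) 5 of 10 members held 6 matches, against 17.4% of genes with at least 1. In their longest annotated UTRs, these were the cytokine genes Il6 and Lif with 1 match each, and the receptor genes Il6ra, Il6st and Lifr. Their UTRs of 1668 to 7102 bases are longer than the median of 961 bases over all genes with a 3′ UTR, and no comparison at equal length was made. For Il6 the UTR of 1668 bases also exceeds the listed gene length of 1141 bases. The Il6 match begins at base 31 of that UTR. Whether the Il6 mRNA measured here contains this match was not tested.

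In the 4T1 cells the family was led by Lif and Clcf1 among cytokines and by Il6st among receptors, while Lifr was close to 0. Between groups, Il6 was the 1 member that passed the test: it was higher in in9, at 2.64 times the LV2 mean. In Il11, Osmr, Il6ra and Clcf1 every in9 value was above every LV2 value without passing it, and no member was called lower. In bulk RNA, a change in the number of expressing cells and a change in RNA per cell cannot be told apart.

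A member was called at a Benjamini-Hochberg adjusted p under 0.05 in limma, fitted on log2(TPM + 1) over all 13406 tested genes. Of these, 0.821% were called higher and 0.194% lower. In the family 1 of 9 tested members was called higher and 0 lower in limma. Before adjustment, 5 of 9 had a p under 0.05 with in9 higher and 0 with in9 lower, against 13.6% and 5.86% of all tested genes. The groups did not overlap in 6 members, 5 with in9 above LV2 and 1, Lif, with in9 below. Over all tested genes 17.4% had every in9 value above every LV2 value, and 8.08% below. The median log2 fold change of the 9 was 0.42, against 0.06 over all tested genes, and 7 were positive, as were 8543 of all 13406. Since the members were chosen with results of these libraries known, these counts describe the family and are not independent support.

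**Figure D1:**
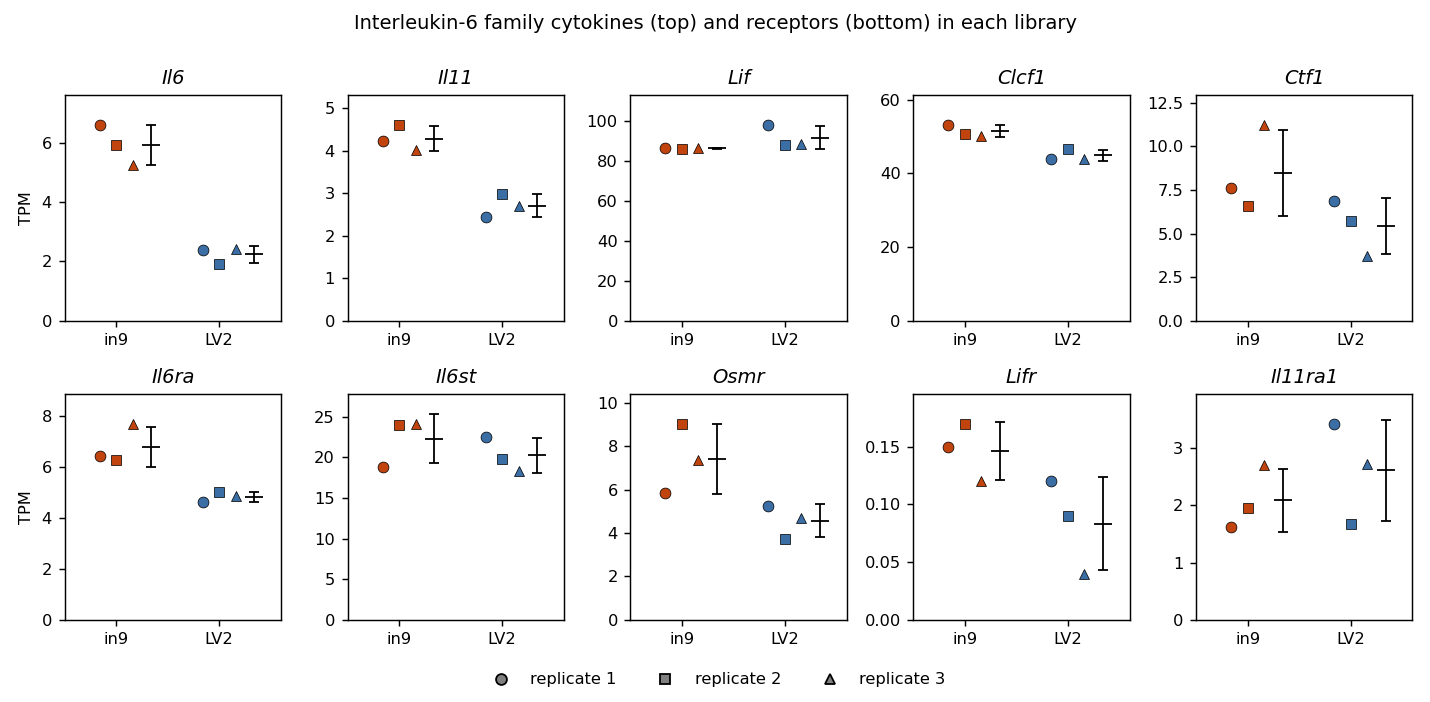
TPM of the 10 members (vertical axis, from 0) in each library, with in9 left of LV2, marker shapes for replicates, and bars for the mean and SD of 3 libraries. Il6 lies between 5.24 and 6.61 TPM in in9 and between 1.91 and 2.42 TPM in LV2, whereas Il6st, Ctf1, Lifr and Il11ra1 overlap between groups.

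Among the cytokine genes, Lif encodes leukaemia inhibitory factor (chromosome 11, positions 4257557 to 4272514) and was the most abundant member in both groups. It had 86.81, 86.06 and 86.46 TPM in in9, against 98.43, 88.33 and 88.79 TPM in LV2. All in9 values were below the LV2 values, though by under 2 TPM from the nearest. This was a log2 fold change of -0.08 ± 0.05 (SE), with a 95% interval of -0.22 to 0.05 and an adjusted p of 0.431 in limma.

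Clcf1 (chromosome 19, positions 4214238 to 4223490) encodes cardiotrophin-like cytokine factor 1, which acts through the ciliary neurotrophic factor receptor chain. It had 53.25, 50.71 and 50.25 TPM in in9, against 43.99, 46.67 and 43.89 TPM in LV2. The groups did not overlap. Its log2 fold change of 0.19 ± 0.05 (SE) had an adjusted p of 0.130 in limma. The span of Clcf1 overlaps AC109138.7 on the same strand, at a mean of 0.89 TPM in in9 and 0 TPM in LV2.

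Cntfr, the gene of that receptor chain, was at 1.83, 2.76 and 2.0 TPM in in9, against 1.62, 2.20 and 3.19 TPM in LV2, and the groups overlapped.

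Il6 (chromosome 5, positions 30013114 to 30019981) encodes interleukin-6. It had 6.61, 5.92 and 5.24 TPM in in9, against 2.39, 1.91 and 2.42 TPM in LV2. The lowest in9 library was above 2 times the highest LV2 library. The means were 5.92 ± 0.685 TPM in in9 and 2.24 ± 0.286 TPM in LV2 (SD, n = 3 each), and the log2 fold change was 1.09 ± 0.14 (SE), with a 95% interval of 0.77 to 1.42. The adjusted p was 0.0351 in limma, and Il6 ranked 44 of 13406 genes by p. On the log2(TPM + 1) scale this is a 2.14-fold difference, since the added 1 TPM understates the change of low genes. The fold kept its size when single libraries were left out (log2 1.02 to 1.17), but the call did not. Without in9 replicate 1 the adjusted p was 0.0201, and without any other 1 library it lay between 0.106 and 0.157 in limma.

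The sequence around the start of Il6 is shown because it is the member that passed the test. It spans 250 bases before to 50 after the RefSeq start (chr5:30012864-30013163, plus strand, GRCm38.p6), and capitals mark matches to the motifs searched.
Il6 promoter: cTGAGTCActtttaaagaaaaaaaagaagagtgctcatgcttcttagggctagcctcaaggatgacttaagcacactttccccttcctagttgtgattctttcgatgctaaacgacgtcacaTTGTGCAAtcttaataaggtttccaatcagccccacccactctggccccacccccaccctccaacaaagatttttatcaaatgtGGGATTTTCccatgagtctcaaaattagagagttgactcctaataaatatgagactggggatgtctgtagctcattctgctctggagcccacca
Searched on both strands, it held an AP-1 motif (TGANTCA) at -249, a C/EBP motif (TTGCNNAA, here on the other strand) at -128 and an NF-kB motif (GGGANTTTC) at -44. No motif overlapped another. Among 32851 promoter windows of RefSeq genes, 7.81% held the AP-1 letters, 10.8% the C/EBP letters and 1.11% the NF-kB letters. Of the 9 members with a promoter in the table, Il6, Il11, Lif and Osmr held the AP-1 letters and Il6 alone the other 2 motifs. The STAT letters TTCNNNGAA were in none of the 9 and in 8.3% of all windows. A match is a description of the letters and not of binding.

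Il11 (chromosome 7, positions 4772373 to 4782859) encodes interleukin-11, known for promoting bone metastasis of breast tumours. It had 4.23, 4.62 and 4.02 TPM in in9, against 2.45, 2.98 and 2.70 TPM in LV2. The groups did not overlap, and the in9 mean was 1.58 times the LV2 mean. On the log2 scale the change was 0.51 ± 0.12 (SE), with a 95% interval of 0.22 to 0.81 and an adjusted p of 0.104 in limma.

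Ctf1 (chromosome 7, positions 127712736 to 127718192) encodes cardiotrophin-1. Its values of 7.63, 6.56 and 11.26 TPM in in9 overlapped those of 6.85, 5.75 and 3.71 TPM in LV2. In9 replicate 3 was the highest library and LV2 replicate 3 the lowest. Its log2 fold change of 0.56 ± 0.25 (SE) was close in size to that of Il11, but its interval of -0.04 to 1.16 included 0 and the adjusted p was 0.280 in limma.

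**Figure D2:**
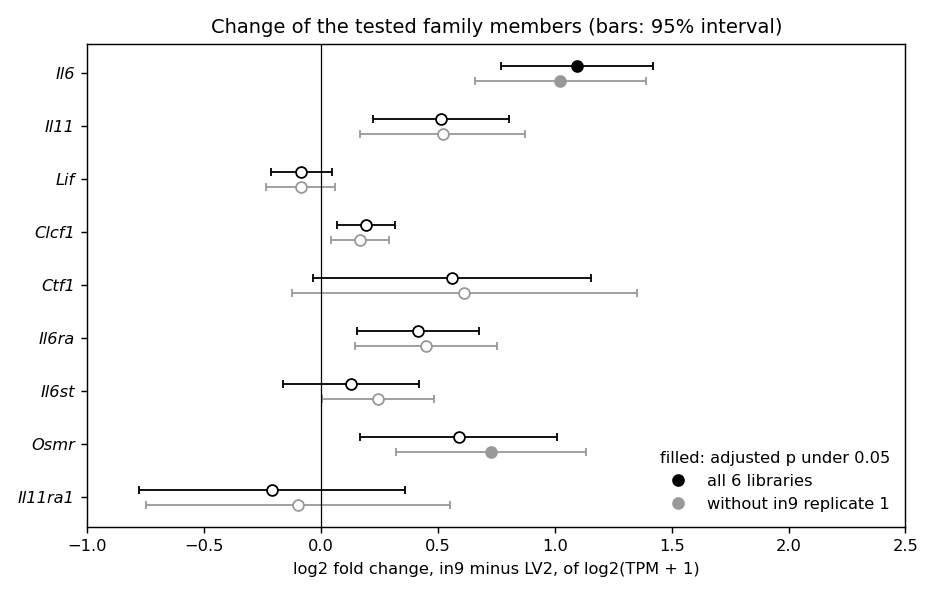
Log2 fold change of the 9 tested members (horizontal axis, in9 minus LV2 on log2(TPM + 1)) with 95% intervals, for all 6 libraries in black and without in9 replicate 1 in grey. Filled points are called at an adjusted p under 0.05: Il6 in both fits, and Osmr (0.73) without in9 replicate 1.

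The sum over the 5 cytokine genes was 158.53, 153.87 and 157.23 TPM in in9, against 154.11, 145.64 and 141.51 TPM in LV2, so the sums overlapped. Within it, Lif made up 54.8% to 55.9% in in9 and 60.6% to 63.9% in LV2. Il6 made up 3.33% to 4.17% in in9 and 1.31% to 1.71% in LV2. Neither pair of ranges overlapped, and Il6 remained a small part of the cytokine transcripts in every library.

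Among the receptor genes, that of the shared chain was the most abundant. Il6st (chromosome 13, positions 112464070 to 112510086) had 18.79, 23.92 and 24.15 TPM in in9, against 22.56, 19.82 and 18.32 TPM in LV2. In9 replicate 1 was within the LV2 range and the other 2 in9 libraries were above it. Over all libraries its difference was 0.13 ± 0.12 on the log2 scale (SE; adjusted p = 0.586 in limma). That value was 0.24 without in9 replicate 1, with an adjusted p of 0.156.

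Osmr (chromosome 15, positions 6813577 to 6874969), the oncostatin M receptor chain, had 5.85, 9.05 and 7.35 TPM in in9, against 5.26, 3.74 and 4.70 TPM in LV2. All in9 values were above the LV2 values, with in9 replicate 1 nearest to them. The log2 fold change was 0.59 ± 0.18 (SE), with a 95% interval of 0.17 to 1.01 and an adjusted p of 0.153 in limma. Without in9 replicate 1 it was 0.73 and Osmr was called (adjusted p = 0.0485), in a fit that called 7.25% of all tested genes higher and 3.80% lower. The ligand gene Osm was at 0.09 TPM or below in every library.

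Il6ra (chromosome 3, positions 89864059 to 89913196), the chain that binds interleukin-6, had 6.43, 6.28 and 7.71 TPM in in9, against 4.62, 5.02 and 4.87 TPM in LV2. The groups did not overlap, and the means were 6.81 ± 0.786 TPM in in9 and 4.84 ± 0.202 TPM in LV2 (SD, n = 3 each). The log2 fold change was 0.42 ± 0.11 (SE), with a 95% interval of 0.15 to 0.68 and an adjusted p of 0.123 in limma.

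Il11ra1 (chromosome 4, positions 41699989 to 41769474), the chain that binds interleukin-11, had 1.62, 1.95 and 2.70 TPM in in9, against 3.43, 1.68 and 2.73 TPM in LV2. The groups overlapped, and the log2 fold change of -0.21 ± 0.24 (SE) had an interval of -0.78 to 0.36 and an adjusted p of 0.653 in limma. Its annotated span overlaps more abundant genes on the other strand, such as Dctn3 at 73.4 TPM in in9 and 65.0 TPM in LV2. On the same strand it overlaps Galt, at 9.58 TPM in in9 and 7.74 TPM in LV2. Whether counting used strand is not given in the sources used here, and strand alone would not separate Galt, so reads of Il11ra1 are uncertain. The close copies named Il11ra2 were listed at 0 in all libraries.

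Lifr (chromosome 15, positions 7090614 to 7197489), the LIF receptor chain with the seed matches shown above, had 0.15, 0.17 and 0.12 TPM in in9, against 0.12, 0.09 and 0.04 TPM in LV2. The groups touch at 0.12 TPM, and all 6 values are far below the 1 TPM required for testing. With no low-value requirement limma gave an adjusted p of 0.517 and a log2 difference of 0.08 ± 0.04 (SE). Per length, Lifr was at 0.00497 to 0.00798 times the level of Il6st in in9, and at 0.00218 to 0.00532 times in LV2. A change in Lifr was not detectable at these levels, whose depth in reads is unknown.

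**Figure D3:**
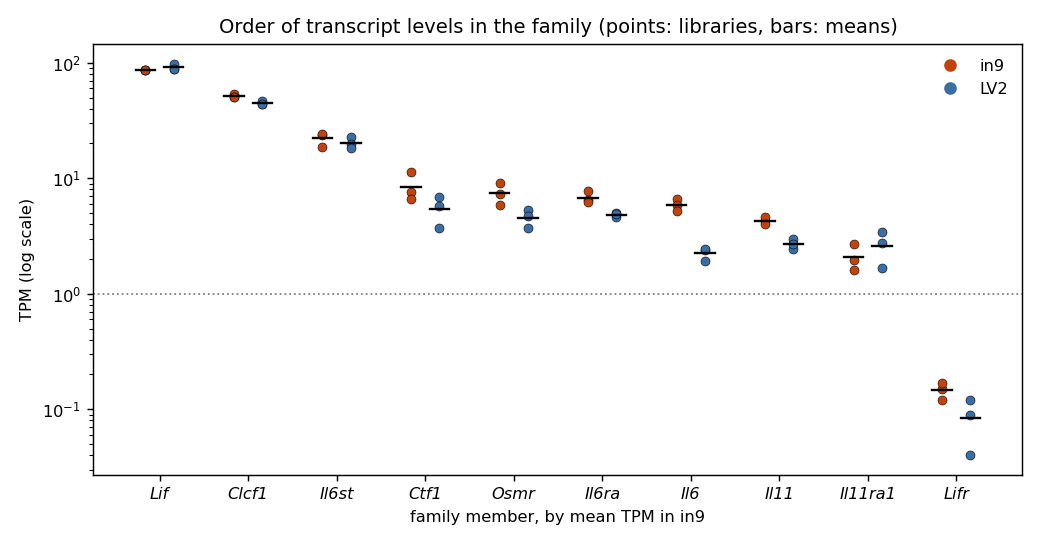
TPM of the members on a log axis, ordered by the mean in in9, with points for libraries (in9 left of LV2) and bars for means; the dotted line is 1 TPM. Lif, Clcf1 and Il6st lead in both groups, and Lifr lies at 0.04 to 0.17 TPM.

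The order of levels was alike at both ends. In each group Lif, Clcf1 and Il6st came first, none overlapping its neighbour, and Lifr came last. In in9, Ctf1, Osmr, Il6ra and Il6 followed with means of 8.48, 7.42, 6.81 and 5.92 TPM, and each overlapped the next. In LV2, Ctf1, Il6ra and Osmr overlapped at 5.44, 4.84 and 4.57 TPM, and Il11, Il11ra1 and Il6 at 2.71, 2.61 and 2.24 TPM. Il6 thus held place 7 of 10 in in9 and place 9 of 10 in LV2.

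The genes whose pattern over the 6 libraries was most like that of Il6 were Lysmd1, Prxl2a, Fam53a, Bckdha and Ly6a. Their Pearson r with Il6 on log2(TPM + 1) was 0.992 to 0.996, the highest among 10578 protein-coding genes considered. All share the split between groups with Il6. Ly6a, a surface antigen gene, was at 6.97, 5.53 and 5.11 TPM in in9, against 2.39, 2.20 and 2.31 TPM in LV2.

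Other ligands and receptors that use gp130 or are related to it had low levels. Of 13 such genes, Cntfr alone reached the mean required for testing, and it was not called (log2 fold change -0.05, adjusted p = 0.929 in limma). Il31, Il31ra and Csf3r were listed at 0 in all libraries.

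Downstream of the receptors, 12 of 13 listed signal transducers were tested. All 12 were on the positive side, as were 8543 of all 13406 tested genes. Their median log2 fold change was 0.14, against 0.06 over all tested genes. After trimmed-mean scaling 9 of the 12 were positive, as were 6660 of 13406, and the medians were 0.08 for the list and -0.0013 over all genes. Stat3, the main transcription factor of this pathway, had 36.28, 40.42 and 37.99 TPM in in9, against 30.65, 26.96 and 28.89 TPM in LV2, and missed the threshold at an adjusted p of 0.0610. Its groups were apart, as were those of the kinase gene Jak2, with a mean of 26.7 TPM in in9 and 21.2 TPM in LV2 (adjusted p = 0.158). Stat3 and Jak2 were both called without in9 replicate 1, and neither without any other single library. The fit without in9 replicate 1 called 7.25% of all tested genes higher.

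Of 9 tested feedback inhibitors 1 was called higher and 0 lower in limma, against 0.821% and 0.194% of all tested genes. Before adjustment 4 higher and 0 lower had a p under 0.05, against 13.6% and 5.86% of all tested genes. The list's median log2 fold change was 0.14, against 0.06 over all tested genes. Socs3, which blocks gp130 and its kinases, had 31.03, 28.99 and 30.82 TPM in in9, against 22.54, 19.80 and 19.22 TPM in LV2 (adjusted p = 0.0453). The groups were apart by over 6 TPM, yet the call held in 1 of 6 fits that left out a library, the one without in9 replicate 1. The phosphatase gene Ptpn6 averaged 36.4 ± 0.889 TPM in in9 and 31.0 ± 0.878 TPM in LV2 (SD, n = 3 each; adjusted p = 0.1002 in limma). Socs2 averaged 4.75 ± 1.43 TPM in in9 and 2.79 ± 0.290 TPM in LV2 (adjusted p = 0.206 in limma).

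Among 24 tested genes of 30 known to respond to STAT3, 2 were called higher and 0 lower in limma. Over all tested genes these shares were 0.821% and 0.194%. Before adjustment 10 higher and 2 lower had a p under 0.05, against 13.6% and 5.86% of all tested genes. The list's median log2 fold change was 0.16, with 19 positive, against 0.06 and 8543 of 13406 over all tested genes. After trimmed-mean scaling the list's median was 0.10, with 17 positive, against -0.0013 and 6660 of 13406. Lcn2, which encodes an iron-siderophore binding protein, differed by 1.05 ± 0.07 on the log2 scale (SE; adjusted p = 0.00472) and was called whichever library was left out. Cebpd, a transcription factor gene, had 9.49, 10.50 and 10.72 TPM in in9, against 6.55, 5.42 and 5.48 TPM in LV2 (adjusted p = 0.0453). Its groups were well apart, but it too was called in only 1 of the 6 fits, the one without in9 replicate 1. Ier3, an early response gene, averaged 761 ± 28.4 TPM in in9 and 615 ± 30.8 TPM in LV2 (SD, n = 3 each; adjusted p = 0.0561 in limma). Without in9 replicate 1 the list held 4 higher and 3 lower genes, so its members did not all go one way. That fit called 7.25% of all tested genes higher and 3.80% lower.

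**Figure D4:**
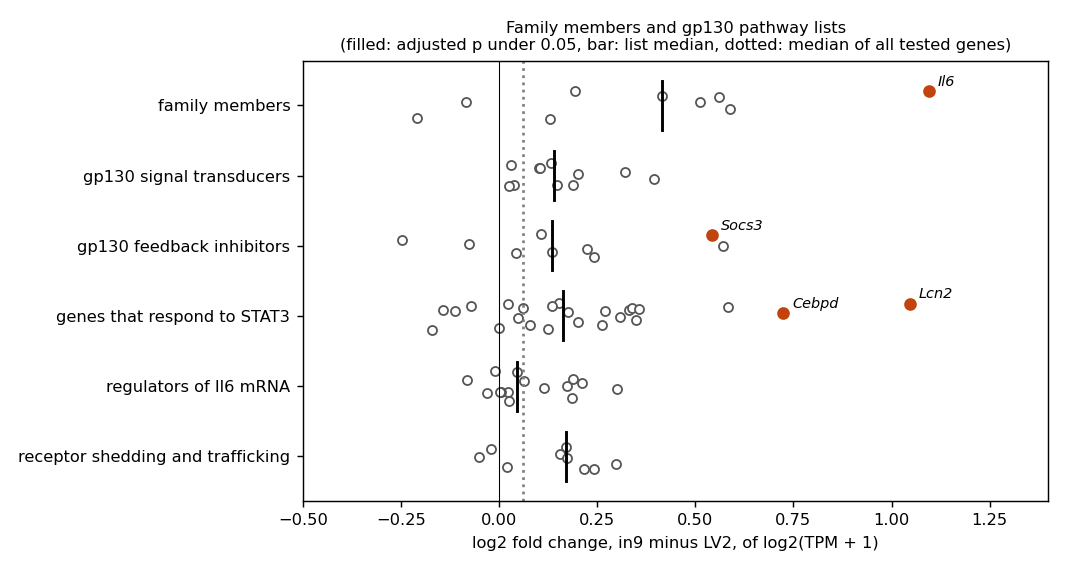
Log2 fold change (horizontal axis, in9 minus LV2 on log2(TPM + 1)) of the tested genes reported here in the family and in 5 pathway lists, with bars for list medians and a dotted line at the median of all tested genes, 0.06. Filled points are called: Il6, Socs3, Cebpd and Lcn2, all higher in in9.

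Of 15 tested regulators of Il6 transcription or mRNA stability, limma called 0, against 1.01% of all tested genes. The list's median log2 fold change was 0.05, or -0.02 after trimmed-mean scaling. Before adjustment 3 higher and 0 lower had a p under 0.05, against 13.6% and 5.86% of all tested genes. Those 3 encode RNA-binding proteins that promote mRNA decay. Zfp36 averaged 22.9 ± 0.774 TPM in in9 and 20.0 ± 0.625 TPM in LV2, Zfp36l1 18.8 ± 2.64 TPM in in9 and 15.0 ± 0.500 TPM in LV2, and Zfp36l2 168 ± 15.6 TPM in in9 and 148 ± 2.78 TPM in LV2 (SD, n = 3 each). Zfp36l1 and Zfp36l2 were called higher without in9 replicate 1 (adjusted p = 0.0253 and 0.0200 in limma), the 2 calls of the list in that fit. It called 7.25% of all tested genes higher. The NF-kB subunit gene Rela had a log2 fold change of 0.00.

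Of 9 tested genes of receptor shedding and trafficking limma called 0, against 1.01% of all tested genes. Before adjustment 1 higher, Rhbdf2, and 0 lower had a p under 0.05, against 13.6% and 5.86% of all tested genes. Rhbdf2, which directs the protease Adam17, averaged 27.2 ± 0.406 TPM in in9 and 23.4 ± 2.5 TPM in LV2. Sorl1, a sorting receptor, averaged 4.41 ± 0.719 TPM in in9 and 3.38 ± 0.229 TPM in LV2. The proteases that can release the interleukin-6 receptor from the surface were Adam10, at 46.7 ± 6.06 TPM in in9 and 41.2 ± 1.45 TPM in LV2, and Adam17, at 51.3 ± 6.66 TPM in in9 and 45.7 ± 1.88 TPM in LV2 (SD, n = 3 each). Without in9 replicate 1 this list held 3 called genes, all higher, in a fit that called 7.25% of all tested genes higher and 3.80% lower.

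Facts of all libraries bear on these values. TPM keep no sequencing depth, so the depth is unknown. In9 replicate 1 was at -2.68 on the first principal component, the other in9 libraries at 26.1 and 27.8, and LV2 between -22.2 and -6.98. That component held 28.1% of the variance. On log2(TPM + 1), in9 replicate 1 had a Pearson r of 0.9685 and 0.9697 with the other in9 libraries. With the LV2 libraries its r was 0.9694 to 0.9731, so it was no closer to its own group. The miR-9 precursors were listed at 0 in all libraries and mature microRNA was not measured, so the knockdown was not checked. All 6 epithelial markers were present, with a sum of 2044.71 to 2079.13 TPM in in9 and 2150.28 to 2167.97 TPM in LV2. The sum of 7 leukocyte markers was 33.68 to 40.56 TPM in in9 and 27.65 to 28.94 TPM in LV2, nearly all of it Cd68, with Ptprc at 0.12 TPM or below and Adgre1 at 0. The sum of 7 fibroblast markers was 7.95 to 8.43 TPM in in9 and 4.74 to 6.76 TPM in LV2, mostly Pdgfra, with Lum at 0. That of 5 endothelial markers was 2.26 to 2.86 TPM in in9 and 2.14 to 2.29 TPM in LV2. The part of these genes in the difference of Il6 was not tested.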

How the data were processed

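The 1 table used holds TPM values of 56448 genes with 2 decimals as deposited by the authors, beside a mean per group and a gene length. Per the submitters' processing notes the build was mm10. The sources used here do not give the aligner, quantifier or annotation. Coordinates and UTRs came from GENCODE M21, which matched 55141 identifiers.

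The test was limma's (3.58.1, R 4.3.3), two-sided, on log2(TPM + 1) of genes whose mean TPM reached 1. It used an intensity trend and no replicate block. P-values were adjusted over all genes tested. Tables and figures were made with python 3.11.15, pandas 2.3.3, numpy 2.4.6 and matplotlib 3.10.9. The steps were tested on simulated data.

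All 10 members are named. From each other list the called genes and the 3 with the smallest p are named, and for Il6 the 5 genes with the highest r. Some others, such as Rela and Adam17, are named outside this rule. A few listed genes are not reported here. Members, lists and motifs were chosen with earlier results of these data known. Alternatives were another pseudocount, filter, scaling or prior, weights per library, protein-coding genes alone, a replicate block, no mitochondrial transcripts, and each library left out.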

Additional observations from a re-analysis of the deposited data

How the results depend on the processing

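All 9 tested members kept the sign of their log2 fold change under every alternative that gave a value (141 values in 16 settings). For part of these values the sign could not change. The fold change stays the same where only the filter, the prior, the set of tested genes or the replicate block differs. No member was called lower in any. The count of members called higher, 1, was 0 without the low-value filter, 0 with a minimum mean TPM of 5 (which removes Il6 from the test), 4 with library weights (Il6, Il11, Il6ra and Osmr), and 0 to 2 when 1 library was left out. Il6 had a log2 fold change of 1.09 without the filter (adjusted p = 0.0853 in limma) and 1.02 to 1.17 when 1 library was left out. Across alternatives its adjusted p in limma ranged from 0.00763 to 0.233. After trimmed-mean scaling it was 0.0444 and after quantile normalization 0.0475.

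Over all genes, 110 were higher and 26 lower. The counts were 24 and 6 without the filter, 27 and 4 without the intensity trend, 1166 and 523 with library weights, 305 and 85 with protein-coding genes only, and 45 lower with a minimum mean TPM of 5. They ranged over 6 to 971 higher and 1 to 509 lower when 1 library was left out, with the most called without in9 replicate 1. The cause of these shifts was not tested.

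With a replicate block Il6 had a log2 fold change of 1.09 and an adjusted p of 0.233 in limma, 0 members were higher, and 1 gene was higher and 1 lower over all genes. Same-numbered libraries deviated from their group means with correlations of -0.097, 0.022 and -0.046. Whether they shared a culture day or a batch is not stated, and so few correlations cannot decide it. The unknown depth of TPM limits what can be said of Lifr and of other genes below 1 TPM.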

Other observations

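Ratios between members within a library do not depend on scaling between libraries, and were computed after the values were seen. Il6 was at 0.0761, 0.0688 and 0.0606 times the TPM of Lif in in9, against 0.0243, 0.0216 and 0.0273 times in LV2. Il11 was at 0.0487, 0.0537 and 0.0465 times Lif in in9, against 0.0249, 0.0337 and 0.0304 times in LV2. Both ratios were apart between groups, as was that of Clcf1 to Lif, at 0.581 to 0.613 in in9 and 0.447 to 0.528 in LV2.

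Among the receptors, Osmr was at 0.311, 0.378 and 0.304 times the TPM of Il6st in in9, against 0.233, 0.189 and 0.257 times in LV2, with no overlap. Il6ra was at 0.342, 0.263 and 0.319 times Il6st in in9, against 0.205, 0.253 and 0.266 times in LV2, and these overlapped. No test was made of these ratios.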
